A study of Mus musculus with 13 samples.

Results

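The 29 genes described here make cholesterol, set the rate of its synthesis, or store and move it, and they were taken by name out of the 23019 genes that all 3 count tables hold. They comprised 8 genes of the mevalonate and isoprenoid steps (Acat2, Hmgcs1, Mvk, Pmvk, Mvd, Idi1, Fdps and Ggps1), 11 genes of the sterol steps from squalene on (Fdft1, Sqle, Lss, Cyp51, Tm7sf2, Msmo1, Nsdhl, Hsd17b7, Ebp, Sc5d and Dhcr7), 4 genes of the control of SREBP2 (Srebf2, Scap, Insig1 and Insig2) and 6 genes of cholesterol handling (Stard4, Soat1, Soat2, Abca1, Abcg1 and Scarb1). The list does not hold every enzyme of the route. RNA came from livers of male C57 mice aged 3 months in 3 groups. The 5 no BDL mice had no bile duct ligation and are labelled as not treated, and whether they had a sham operation is not given in the sources used here. Ligation (BDL), which ties off the duct that drains the liver and causes cholestasis, was carried by both other groups. The 4 miR-Ctrl BDL mice received a control oligonucleotide, and the 4 anti-miR-873-5p BDL mice received a hairpin inhibitor of the microRNA miR-873-5p, both through the tail vein in the week between ligation and sampling. Injected oligonucleotide therefore came with ligation in every treated mouse, and ligation without an injection was not measured here. Each mouse had between 12185333 and 19689037 counted reads, and the member with the fewest reads in any mouse had 30.

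Cholesterol is built from acetyl-CoA through mevalonate, farnesyl diphosphate, squalene and lanosterol, and the liver is a major site of this synthesis. The transcription factor SREBP2, encoded by Srebf2, switches on most enzymes of the route when the membrane of the endoplasmic reticulum is poor in cholesterol. SCAP then escorts it to the Golgi, where it is cut and released, whereas INSIG proteins hold the complex back when sterols are plentiful. Oxysterols in excess activate the LXR receptors, which induce the exporters ABCA1 and ABCG1, and surplus cholesterol is esterified for storage by SOAT1 and SOAT2. In cholestasis the export of cholesterol and bile acids into bile is blocked.

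Several libraries stood apart before any comparison was made. The mice miR-Ctrl 3 and anti-miR-873-5p 2, which the deposited table of both BDL groups leaves out, were the highest of the 13 mice for 14.4% and 13.6% of the 12984 genes kept, and the lowest for 14.4% and 12.7%. No BDL mouse 2 came next, highest for 12.7% and lowest for 11.9%, and no other mouse exceeded 9.33% in either. The 2 mice left out had the least Spp1, a gene of bile duct cells and macrophages, among the ligated livers, at 403 and 195 CPM (counts scaled to a common library size) against 1077 to 1659 in the other 6. Alb, the albumin gene and a defining marker of hepatocytes, was abundant in every library, from 30560 to 89820 CPM. Levels are CPM after 1 scaling over all 13 mice, and fold changes come from the fit of each table.

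In livers without BDL the members differed widely in level per length. Insig1, Fdps, Acat2, Sc5d and Ebp were the highest, with means of 140, 134, 117, 115 and 103 CPM per kb of exon over 5 mice. Soat1 and Abcg1 were the lowest, with 0.402 and 0.813 CPM per kb. The esterifying enzyme Soat2, which acts in hepatocytes, stood at 23.1 CPM per kb, far above Soat1. Shared sequence limits the level of a few genes, because reads of 50 nt were counted from a kit that does not mark strand. Acat2 shares 39.1% of its 50-base windows with transcripts of other genes, all with Acat3, Fdft1 shares 26.5%, mostly with Ctsb on the opposite strand, Fdps shares 26.2%, Idi1 25.3% and Hmgcs1 11.6%.

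miR-Ctrl BDL was compared with no BDL to see what ligation with the control oligonucleotide changed. Of the 29 members, 8 passed an adjusted p of 0.05, 3 higher and 5 lower, while 35.7% of the 13072 genes tested passed, 19.1% higher and 16.6% lower. The members' count was thus not above the background. None of the 8 mevalonate and isoprenoid genes passed, 3 of the 11 sterol genes fell, Srebf2 rose and Scap fell among the control genes, and Soat1 and Abcg1 rose while Stard4 fell among the handling genes. All 29 members had passed the filter on low counts in all 3 comparisons. The median log2 fold change was -0.24 over the members and -0.01 over all genes tested. In bulk liver, fewer cells of a type and less RNA per cell cannot be told apart.

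Among the sterol genes, Tm7sf2 (Entrez 73166, GRCm38 chr19:6062821-6067850), which encodes a sterol reductase, was at 164, 135, 153, 161 and 135 CPM in no BDL mice 1 to 5 and at 58.3, 48.5, 25.4 and 98.2 CPM in miR-Ctrl mice 1 to 4. Every miR-Ctrl mouse was below every no BDL mouse, with mouse 3 the lowest and mouse 4 the highest. The log2 fold change was -1.35 ± 0.31 (SE, adjusted p = 0.00862). Ebp (Entrez 13595, chrX:8185329-8193512), the sterol isomerase, was at 265, 221, 242, 221 and 238 CPM without BDL and at 136, 104, 80.7 and 165 CPM in miR-Ctrl BDL. The groups again did not overlap, and the log2 fold change was -0.94 ± 0.19 (SE, adjusted p = 0.00481). Hsd17b7 (Entrez 15490, chr1:169949535-169969242), a ketosterol reductase, was at 68.5, 62.8, 59.0, 81.9 and 63.4 CPM without BDL and at 37.1, 39.0, 54.9 and 55.1 CPM in miR-Ctrl BDL. These groups were apart by little, and the log2 fold change of -0.51 ± 0.15 (SE, adjusted p = 0.0257) turned to 0.28 when libraries were scaled by their size alone. Sc5d, which encodes a desaturase near the end of the route, was at 484 to 652 CPM without BDL and at 336, 201, 81.9 and 420 CPM in miR-Ctrl BDL. Its groups did not overlap either, but the log2 fold change of -1.07 ± 0.39 (SE, adjusted p = 0.0531) missed the threshold. It passed by DESeq2 (adjusted p = 0.0194), and by edgeR without miR-Ctrl mouse 3 (0.0172) or mouse 4 (0.0263).

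Among the control genes, Scap (Entrez 235623, chr9:110333288-110384949), the SREBP escort protein, was at 221, 176, 192, 182 and 134 CPM without BDL and at 93.0, 81.0, 78.2 and 103 CPM in miR-Ctrl BDL. All 4 miR-Ctrl mice were below all 5 no BDL mice, and the log2 fold change was -1.004 ± 0.153 (SE, adjusted p = 0.00113). Of the exons of Scap, 13.2% overlap a gene on the opposite strand. Srebf2 (Entrez 20788, chr15:82147269-82205379) itself was at 60.4, 62.4, 54.5, 60.3 and 66.8 CPM without BDL and at 71.6, 71.8, 73.2 and 72.5 CPM in miR-Ctrl BDL. The 4 ligated mice were nearly identical and just above the highest no BDL mouse, with a log2 fold change of 0.27 ± 0.08 (SE, adjusted p = 0.0315). Insig1, which SREBP2 induces and which holds SREBP2 back, was at 306 to 500 CPM without BDL and spread from 99.7 to 606 CPM in miR-Ctrl BDL, with an adjusted p of 0.568.

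Among the handling genes, Stard4 (Entrez 170459), a cytosolic cholesterol carrier, was at 43.7, 39.2, 44.0, 40.6 and 21.3 CPM without BDL and at 12.8, 12.04, 8.92 and 19.1 CPM in miR-Ctrl BDL. Its groups did not overlap, although no BDL mouse 5 was far below the other 4, and the log2 fold change was -1.48 ± 0.26 (SE, adjusted p = 0.00228). Soat1 (Entrez 20652, chr1:156428108-156474328), the cholesterol acyltransferase found in many cells including macrophages, was at 4.15, 2.86, 3.95, 3.37 and 5.33 CPM without BDL and at 7.41, 13.2, 6.17 and 11.04 CPM in miR-Ctrl BDL. Every ligated mouse was above every no BDL mouse, with a log2 fold change of 1.29 ± 0.26 (SE, adjusted p = 0.00434). Abcg1 (Entrez 11307, chr17:31057694-31117984), which exports cholesterol to HDL, was at 3.28, 4.77, 5.93, 5.10 and 10.6 CPM without BDL and at 16.6, 28.4, 6.42 and 22.4 CPM in miR-Ctrl BDL. Mouse 3 lay within the no BDL range and the other 3 above it, and the log2 fold change was 1.67 ± 0.43 (SE, adjusted p = 0.0134). The other exporter, Abca1, was at 115, 135 and 133 CPM in mice 1, 2 and 4 and at 347 CPM in mouse 3, against 108 to 158 CPM without BDL, with an adjusted p of 0.315.

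Over the members, 6 were lower without overlap of the groups (Sc5d beside Tm7sf2, Hsd17b7, Ebp, Scap and Stard4) and 2 higher (Srebf2 and Soat1), where 15.5% and 14.1% of 12374 genes with a level in all mice were lower and higher without overlap. The 21 members that did not pass ranged in log2 fold change from -1.07 (Sc5d) to 0.44 (Soat2), and without miR-Ctrl mouse 3 the value of Soat2 was -0.23. The call of Hsd17b7 was lost without no BDL mouse 1 or 4 or miR-Ctrl mouse 1 or 2, and that of Srebf2 without no BDL mouse 1, 3 or 4 or miR-Ctrl mouse 1, 2 or 4, at edgeR adjusted p-values of up to 0.0740 and 0.0776. Both calls were also lost with all 3 groups in 1 fit, at adjusted p-values of 0.350 and 0.422, and that of Srebf2 with every gene of at least 1 count tested, at 0.0568. The direction of the members depends on scaling: by library size alone the median of all genes moved to 0.79 and 15 members passed, 14 higher and 1 lower (Stard4, at -0.68), in place of 3 and 5, and the calls of Tm7sf2, Ebp, Hsd17b7 and Scap were lost. With the 20 most counted genes left out of the library size, 9 members passed, 6 higher and 3 lower, and the calls of Ebp and Hsd17b7 were lost. The 20 most counted genes took 33.0% to 44.4% of reads without BDL and 21.3% to 24.8% in miR-Ctrl BDL.

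**Figure D1:**
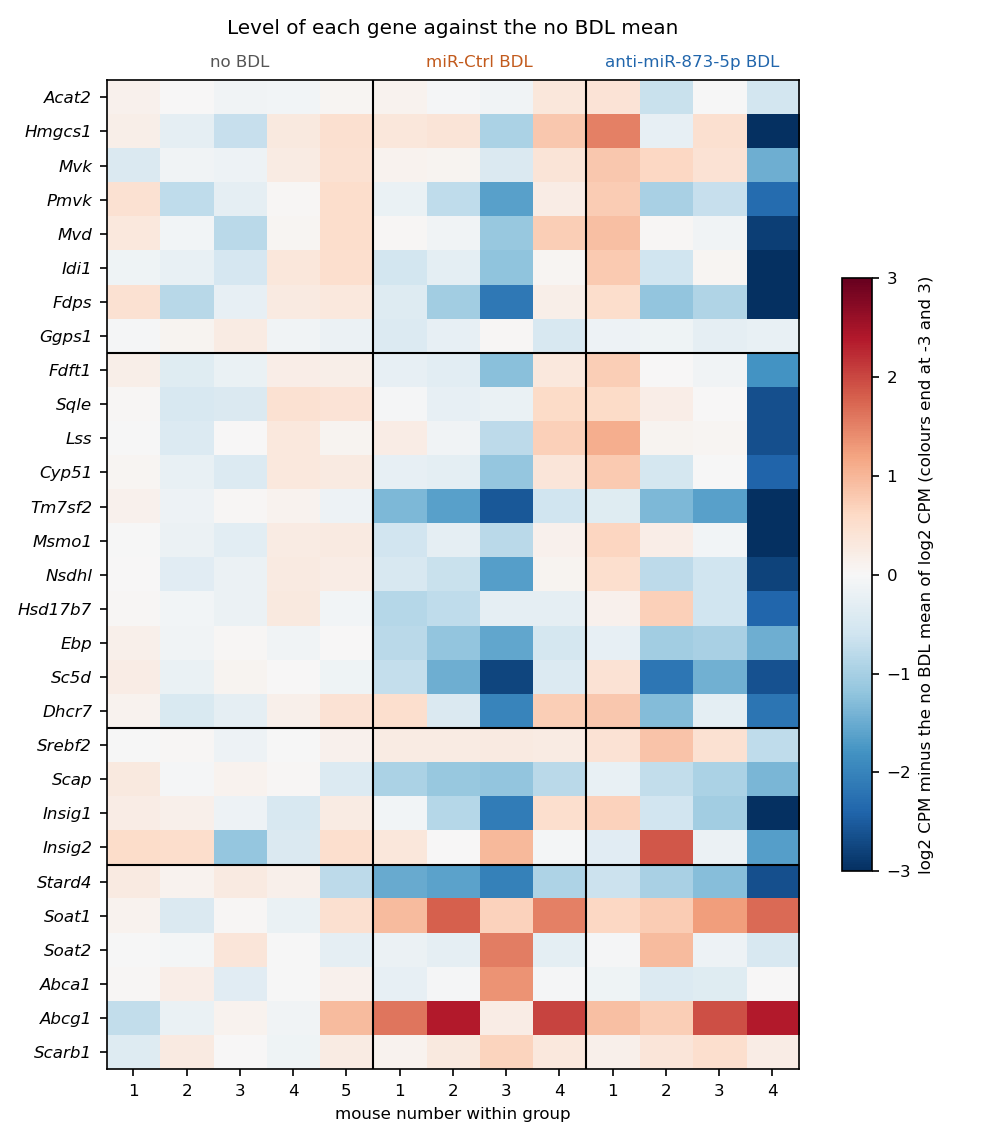
Level of each of the 29 members (rows, by role) in each of the 13 mice (columns), as log2 CPM minus the no BDL mean of log2 CPM, with blue lower and red higher. Tm7sf2, Scap and Stard4 are blue and Soat1 red in all 8 ligated mice, anti-miR-873-5p mouse 4 is blue for 25 members below the no BDL range, and anti-miR-873-5p mouse 1 is red for most synthesis genes.

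anti-miR-873-5p BDL was compared with the same 5 no BDL mice, so both comparisons share their controls. Here 5 of the 29 members passed, Soat1 and Abcg1 higher and Ebp, Scap and Stard4 lower, while 21.5% of the 13130 genes tested passed, 13.1% higher and 8.44% lower. The members' count was again not above the background. No mevalonate gene, 1 of 11 sterol genes, 1 of 4 control genes and 3 of 6 handling genes passed. The median log2 fold change was -0.15 over the members and -0.01 over all genes tested.

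Ebp was at 199, 115, 120 and 85.7 CPM in anti-miR-873-5p mice 1 to 4. All were below the 221 to 265 CPM of the no BDL mice, and the log2 fold change was -0.84 ± 0.22 (SE, adjusted p = 0.0255). Tm7sf2 was at 115, 58.7, 48.1 and 15.7 CPM, also below every no BDL mouse, with mouse 1 and mouse 4 far apart. Its log2 fold change of -1.31 ± 0.43 (SE, adjusted p = 0.0553) did not pass by edgeR, but Tm7sf2 passed by DESeq2 (adjusted p = 0.0124). Scap was at 154, 107, 92.8 and 68.7 CPM, so that mouse 1 overlapped the lowest no BDL mouse at 134 CPM. Its log2 fold change was -0.75 ± 0.23 (SE, adjusted p = 0.0416), and scaling by library size alone gave 0.04.

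Stard4 was at 23.3, 18.5, 15.1 and 5.85 CPM in the same 4 mice. Mouse 1 was above no BDL mouse 5 and below the other 4 no BDL mice, and the log2 fold change was -1.25 ± 0.35 (SE, adjusted p = 0.0332). Soat1 was at 5.94, 6.53, 9.18 and 12.4 CPM, all above the highest no BDL mouse, with a log2 fold change of 1.14 ± 0.26 (SE, adjusted p = 0.0148). Abcg1 was at 10.3, 9.11, 21.1 and 28.6 CPM, and mice 1 and 2 lay just below no BDL mouse 5 at 10.6 CPM. Its log2 fold change was 1.57 ± 0.41 (SE, adjusted p = 0.0247).

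In total, 2 members (Tm7sf2 and Ebp) were lower and 1 (Soat1) was higher without overlap of the groups, beside 8.99% and 9.64% of 12388 genes. The 24 members that did not pass ranged from Tm7sf2 to Srebf2, the latter with a log2 fold change of 0.37 ± 0.25 (SE, adjusted p = 0.320). Most of these calls were near the threshold and passed or failed with the mice that entered. Without no BDL mouse 1, or without anti-miR-873-5p mouse 3, there was 1 member past the threshold, Soat1, which passed without any 1 of the 9 mice. Leaving out no BDL mouse 2, 3 or 4 left 2, Soat1 and Ebp, while 4 passed without anti-miR-873-5p mouse 4, of which Srebf2 and Tm7sf2 were gained. Without anti-miR-873-5p mouse 1 there were 7, with Sc5d and Tm7sf2 gained. With 1 mouse left out, the log2 fold changes kept their sign and ran from 1.21 to 1.89 for Abcg1, from -1.52 to -0.97 for Stard4, from -1.13 to -0.69 for Ebp and from -0.998 to -0.60 for Scap. By library size alone the median of all genes moved to 0.82, and 9 members passed, all of them higher. With the 20 most counted genes left out of the library size, 5 passed, 4 higher and 1 lower, and the calls of Ebp and Scap were lost.

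**Figure D2:**
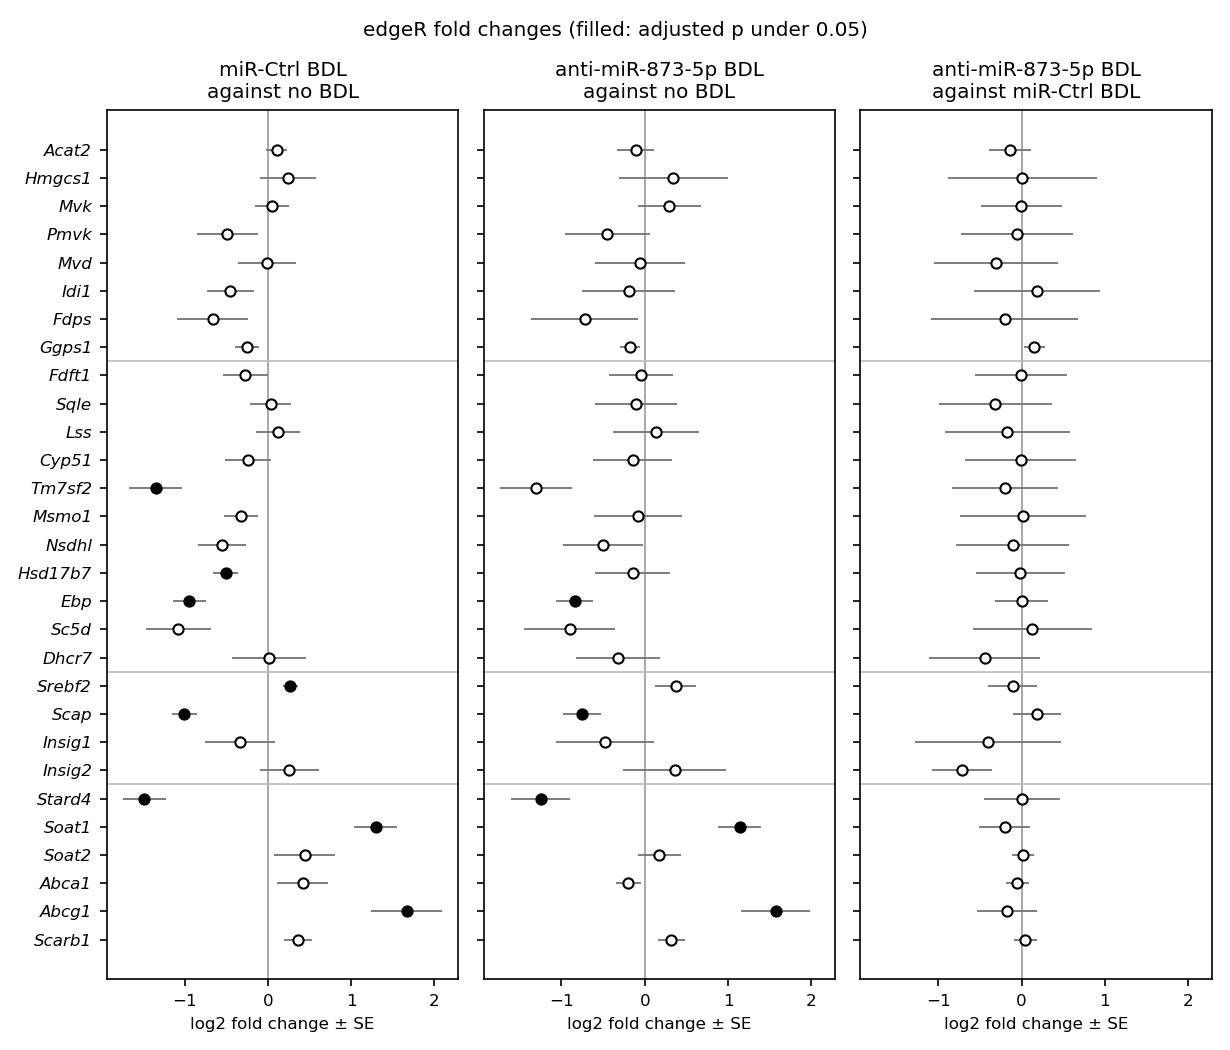
Log2 fold change of each member (points) with its standard error (bars) in the 3 comparisons, on 1 horizontal scale, with filled points at an adjusted p under 0.05. The left and middle panels share their 5 no BDL mice and show 8 and 5 filled points, and the right panel shows none.

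The table of both BDL groups tests the effect of the inhibitor within ligation, on 3 mice a group (miR-Ctrl 1, 2 and 4, with anti-miR-873-5p 1, 3 and 4). None of the 29 members passed, and none of the 13746 genes tested did (0.0%) by edgeR, with 0 members and 863 genes at an unadjusted p under 0.05. DESeq2 called 29 genes, none of them a member. The median log2 fold change was -0.05 over the members and 0.01 over all genes. The standard errors were wide for the synthesis genes: Hmgcs1 had a log2 fold change of 0.01 ± 0.89 (SE) and Fdps one of -0.20 ± 0.89 (SE), so that a change by a large factor in either direction was not detectable with these mice.

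The member with the smallest unadjusted p was Insig2, an anchor of the SREBP complex in the liver. It was at 236, 189 and 181 CPM in the miR-Ctrl mice of this table and at 148, 165 and 59.1 CPM in those given the inhibitor. These groups did not overlap, as for 4.66% of 12903 genes lower without overlap (6.88% were higher without overlap, and no member), and the log2 fold change was -0.71 ± 0.36 (SE, adjusted p = 0.782). The mice left out of this table had the highest Insig2 levels of their groups, at 366 CPM in miR-Ctrl mouse 3 and 681 CPM in anti-miR-873-5p mouse 2, and with all 4 mice the groups overlapped. Ggps1, which makes the geranylgeranyl group for protein prenylation, was at 8.01, 9.001 and 7.68 CPM in miR-Ctrl BDL and at 9.57, 8.88 and 9.14 CPM in anti-miR-873-5p BDL. Its groups overlapped, with a log2 fold change of 0.16 ± 0.13 (SE, adjusted p = 0.856). Soat1 was at 7.41, 13.2 and 11.04 CPM against 5.94, 9.18 and 12.4 CPM, with a log2 fold change of -0.20 ± 0.31 (SE, adjusted p = 0.929). Idi1 had the highest log2 fold change among the members, 0.19 ± 0.76 (SE), and it turned to -0.55 without anti-miR-873-5p mouse 1.

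The 19 synthesis genes ranged more widely between the mice of anti-miR-873-5p BDL than most genes did. The highest of the 4 mice exceeded the lowest by 8.27-fold in the median synthesis gene, against 1.58-fold in the median of all 12984 genes kept. In miR-Ctrl BDL the same figures were 2.85-fold and 1.5-fold, and in no BDL 1.65-fold and 1.47-fold over 5 mice. A standard deviation above 1 on the log2 scale within anti-miR-873-5p BDL was found for 16 of the 19 synthesis genes and for 4.17% of all genes. Acat2, Ggps1 and Ebp were the exceptions. These spreads are descriptions, with no test, and the genes named in this account were chosen after their values were seen.

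Anti-miR-873-5p mice 1 and 4 were the ends of this range. Hmgcs1 (Entrez 208715, chr13:119690351-119708260), the synthase that forms HMG-CoA, was at 1214, 360, 600 and 46.7 CPM in mice 1 to 4, which is 26.02-fold from mouse 4 to mouse 1. Fdps, the farnesyl diphosphate synthase, was at 780, 239, 289 and 36.5 CPM, and Insig1 at 689, 287, 207 and 38.6 CPM. For both genes the no BDL mice lay in a narrower band, at 305 to 743 and 306 to 500 CPM, inside the range of the anti-miR-873-5p mice. Sqle, squalene epoxidase, was at 185, 142, 126 and 19.96 CPM, and Mvd, mevalonate diphosphate decarboxylase, at 72.9, 40.3, 36.7 and 5.51 CPM. Mouse 1 exceeded mouse 4 by at least 4-fold for 16 of 19 synthesis genes and for Insig1, beside 0.801% of all genes. These mice and this direction were picked as the ends of the range in the same synthesis genes, so the contrast is not a test.

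Over all 13 mice, anti-miR-873-5p mouse 4 was the lowest for 15 of the 19 synthesis genes and mouse 1 the highest for 14. The corresponding shares of all genes were 8.67% and 1.94%. Mouse 4 was below every no BDL mouse for all 19 synthesis genes, and for 25 of the 29 members, where 32.2% of all genes were. Its synthesis genes had a median log2 difference of -2.59 from the no BDL mean, against 0.64 in mouse 1, -0.12 in mouse 3 and -0.52 in mouse 2. For all genes these medians ran from -0.03 to 0.01. Mouse 4 had 15163990 counted reads in its table, the most of the 4, and 949 of them on Hmgcs1. Without mouse 4 the median range of the synthesis genes fell to 2.38-fold and without mouse 1 to 4.48-fold.

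**Figure D3:**
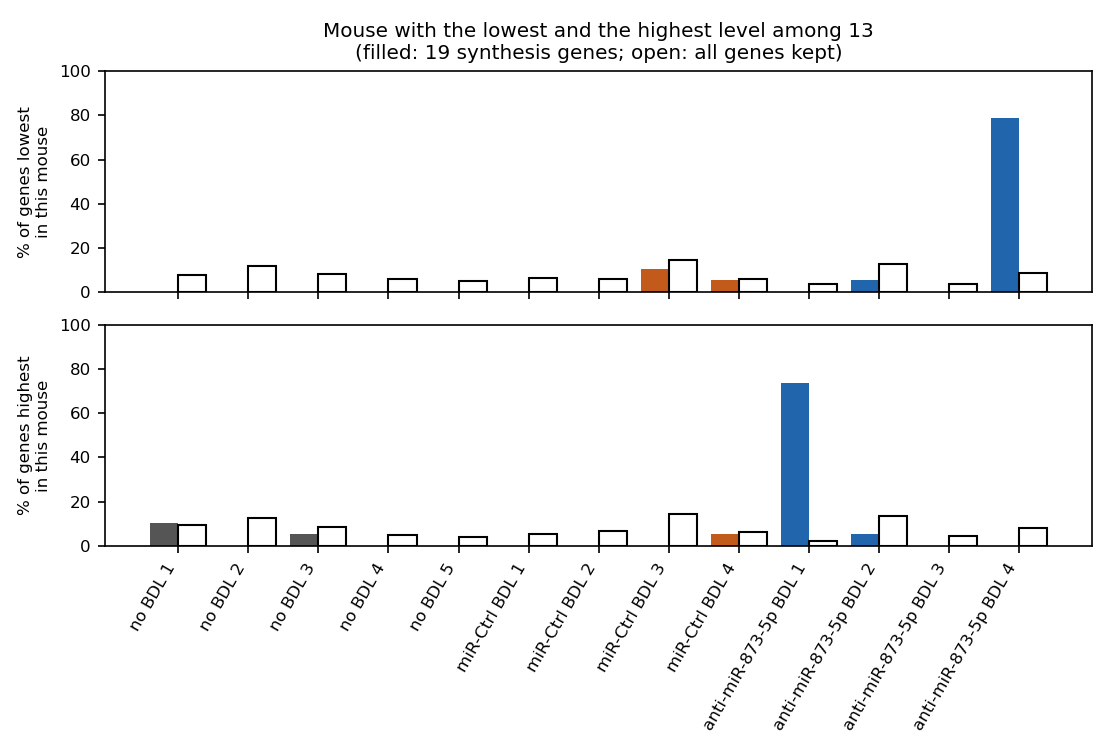
Percent of genes for which each of the 13 mice (horizontal axis) had the lowest level (top) or the highest level (bottom), with filled bars for the 19 synthesis genes and open bars for the 12984 genes kept. The bar of anti-miR-873-5p mouse 4 stands for 15 of 19 genes at the top and that of mouse 1 for 14 of 19 at the bottom, while the open bars stay at or below 14.4%.

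miR-Ctrl BDL held a smaller range of the same kind. Mouse 3 was the lowest of the 4 for 16 of 19 synthesis genes, beside 38.4% of all genes, and mouse 4 the highest for 18, beside 19.5%. Mouse 3 is 1 of the libraries that stood apart over all genes, being also the highest of its group for 38.2% of them. Mouse 3 was also below every no BDL mouse for 17 of the 19, beside 33.0% of all genes, with a median log2 difference of -1.15, and once anti-miR-873-5p mouse 4 was left out it was the lowest of the other 12 mice for 15 of the 19. Dhcr7, the reductase that yields cholesterol, was at 226, 117, 40.5 and 264 CPM in miR-Ctrl mice 1 to 4, and Sc5d, given above, spread by 5.13-fold. Without mouse 3 the median range of the synthesis genes was 1.61-fold.

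Some members did not share this spread. Ggps1, which leads away from cholesterol to prenyl groups, ranged by 1.10-fold within anti-miR-873-5p BDL, from 8.88 to 9.79 CPM. The HDL receptor Scarb1 ranged by 1.26-fold, from 193 to 244 CPM, and Abca1 by 1.35-fold, from 102 to 138 CPM. Soat1 and Abcg1 were highest in mouse 4 of this group, and mouse 1 was at 0.479 and 0.358 of its level. Soat2 was highest in anti-miR-873-5p mouse 2 at 97.1 CPM and in miR-Ctrl mouse 3 at 147 CPM, where the other ligated mice were at 36.3 to 49.5 CPM.

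**Figure D4:**
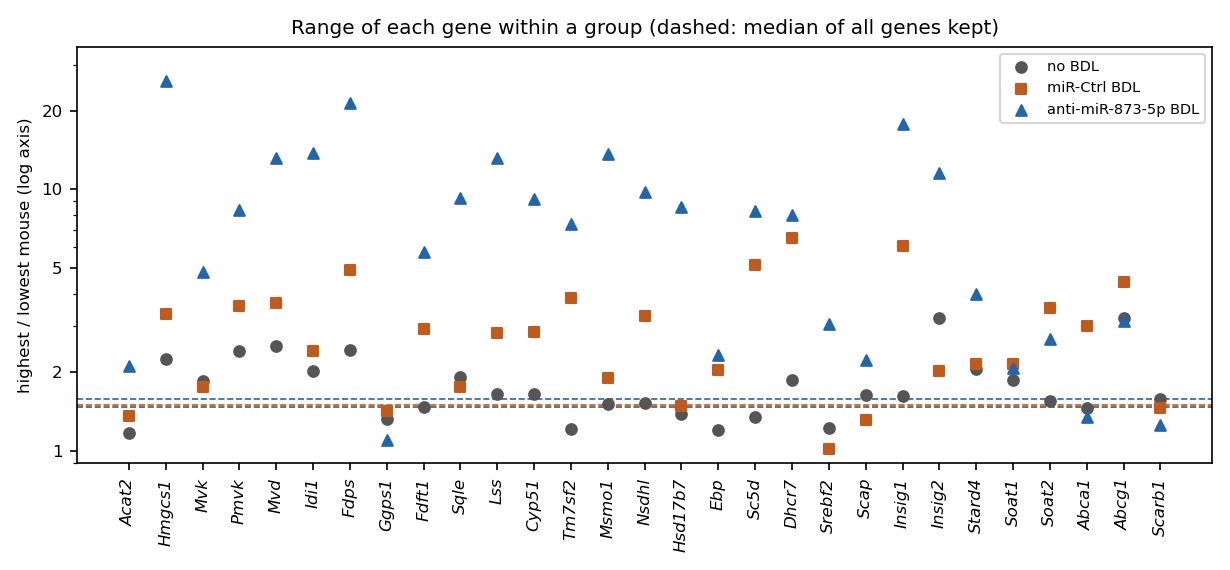
Highest divided by lowest mouse of a group (vertical log axis) for each member, with circles for no BDL (5 mice), squares for miR-Ctrl BDL (4 mice) and triangles for anti-miR-873-5p BDL (4 mice), and dashed lines at the median of all genes kept, 1.47, 1.5 and 1.58. The triangles of most synthesis genes lie between 4.8 and 26.02, and those of Ggps1, Abca1 and Scarb1 lie below the dashed lines.

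**Figure D5:**
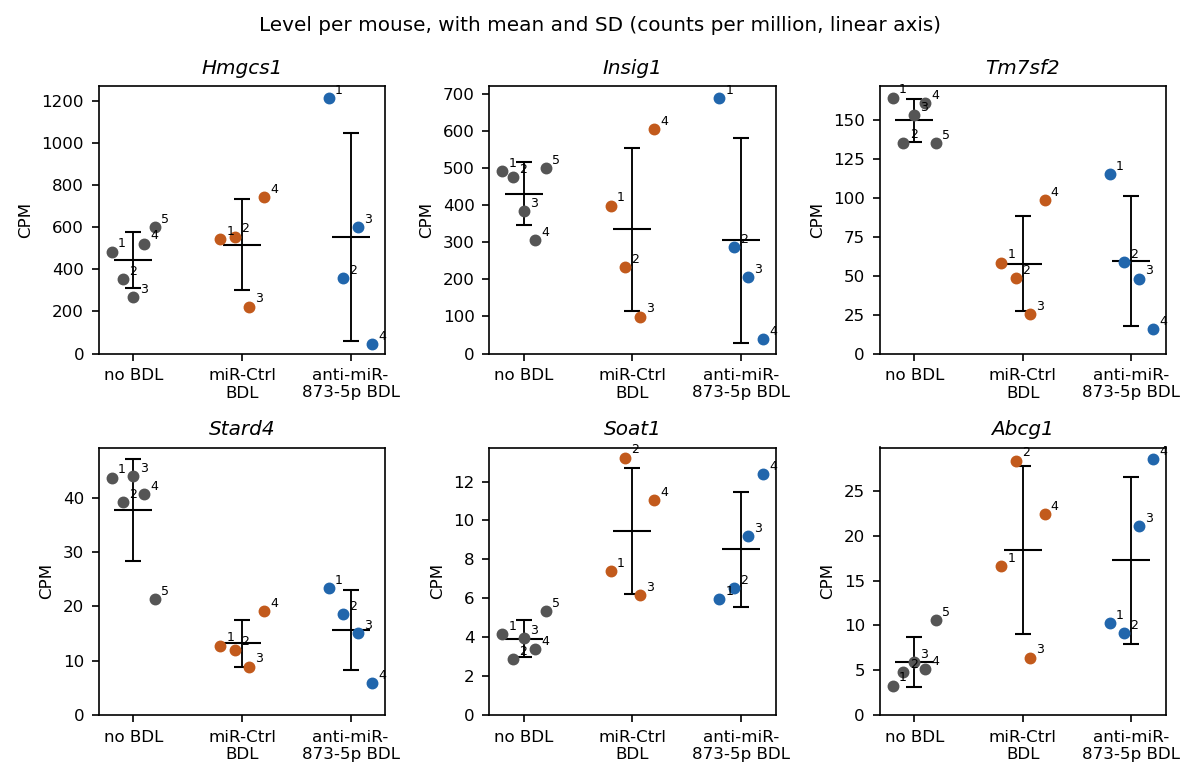
CPM (vertical linear axis from 0) of Hmgcs1, Insig1, Tm7sf2, Stard4, Soat1 and Abcg1 in each mouse, numbered within its group, with the mean (long bar) and SD (whiskers) of 5 no BDL, 4 miR-Ctrl BDL and 4 anti-miR-873-5p BDL mice. Hmgcs1 and Insig1 span the no BDL range within anti-miR-873-5p BDL, from 46.7 to 1214 and from 38.6 to 689 CPM, while every ligated mouse is below no BDL for Tm7sf2 and above it for Soat1.

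RefSeq promoter windows of GRCm38.p6, 250 bases before to 50 after the start, were at hand for 22 of the 29 members, 16 of them synthesis genes. The letters CCAAT, the box bound by NF-Y, stood on either strand in 19 of the 22, including 15 of 16 synthesis genes, while 41.1% of all 27025 genes with a window held it in at least 1 window and 37.4% of 32851 windows did. Of the members with a window, Acat2, Scap and Abca1 lacked it. Fdps, Fdft1, Sqle, Stard4, Soat2, Abcg1 and Scarb1 had no window and were not searched for any motif. The letters TCACNCCAC, a form of the sterol regulatory element bound by SREBPs, stood in Hmgcs1 alone among the 22 members with a window and in 1.24% of windows. A strict form of the LXR element, a direct repeat named DR4, stood in none of the members' windows and in 0.0152% of all. A match is a description of letters and not a binding site. Shown in full are the 250 bases before the start of Hmgcs1 and Insig1, which ranged most with Fdps in anti-miR-873-5p BDL, of Tm7sf2, the synthesis gene that fell most in miR-Ctrl BDL, and of Soat1, which rose, each 5′ to 3′ with the matches in capitals (ATTGG is CCAAT on the other strand).
Hmgcs1: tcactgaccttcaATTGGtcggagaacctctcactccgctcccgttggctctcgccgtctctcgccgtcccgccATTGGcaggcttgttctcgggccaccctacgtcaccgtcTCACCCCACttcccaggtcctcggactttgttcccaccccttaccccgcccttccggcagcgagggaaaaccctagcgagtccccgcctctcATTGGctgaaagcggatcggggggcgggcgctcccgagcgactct
Insig1: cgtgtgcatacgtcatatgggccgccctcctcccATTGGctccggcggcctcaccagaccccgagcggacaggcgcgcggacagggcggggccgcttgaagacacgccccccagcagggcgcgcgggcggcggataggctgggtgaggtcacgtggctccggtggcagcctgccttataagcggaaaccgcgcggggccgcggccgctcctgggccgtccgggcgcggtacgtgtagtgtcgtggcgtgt
Tm7sf2: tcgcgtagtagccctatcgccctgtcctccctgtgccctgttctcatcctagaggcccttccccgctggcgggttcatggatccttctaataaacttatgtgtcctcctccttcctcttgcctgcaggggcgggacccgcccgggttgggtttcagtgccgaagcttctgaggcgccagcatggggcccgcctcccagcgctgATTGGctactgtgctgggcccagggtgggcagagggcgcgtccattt
Soat1: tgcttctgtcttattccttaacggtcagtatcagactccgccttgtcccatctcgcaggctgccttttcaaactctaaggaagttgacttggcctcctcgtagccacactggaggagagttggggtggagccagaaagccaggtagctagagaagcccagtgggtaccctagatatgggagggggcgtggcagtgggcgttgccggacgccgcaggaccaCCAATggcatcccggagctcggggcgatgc
The stretches are chr13:119690101-119690350 (plus strand), chr5:28071162-28071411 (plus), chr19:6067851-6068100 (minus) and chr1:156474329-156474578 (minus). Hmgcs1 held 3 CCAAT matches and the TCACNCCAC match in this stretch, and the other 3 promoters held 1 CCAAT match each. Between anti-miR-873-5p mice the levels of Hmgcs1, Insig1, Tm7sf2 and Soat1 varied by 26.02-fold, 17.8-fold, 7.35-fold and 2.09-fold. A relation between these matches and the range of a gene was not tested.

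Around the 29 members, 40 other genes of the pathway were read from lists of SREBP and LXR control, export and trafficking, oxysterol and bile acid side routes, and isoprenoid use. In miR-Ctrl BDL against no BDL, 4 of the 40 rose and 12 fell, beside 19.1% higher and 16.6% lower among all genes tested. Of the 7 genes of the side routes, 4 fell and 1 rose. Cyp8b1, the sterol hydroxylase that sets the type of bile acid made, went from 262 to 427 CPM without BDL to 0.583 to 3.10 CPM, a log2 fold change of -7.26 ± 0.46 (SE, adjusted p = 3.89e-05). Cyp7b1, the oxysterol hydroxylase, fell by 2.92 ± 0.41 (SE, adjusted p = 0.000767) on the log2 scale, from 119 to 462 CPM to 22.3 to 43.0 CPM. Ch25h, which makes an oxysterol and is inducible in macrophages, rose by 4.07 ± 0.70 (SE, adjusted p = 0.00209), from at most 0.173 CPM to 0.602 to 2.00 CPM, and such low counts give an imprecise fold.

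Among the genes of export and trafficking, 2 of 12 rose and 5 fell in miR-Ctrl BDL. Abcg8, whose product pumps cholesterol into bile with ABCG5, was at 56.1 to 184 CPM without BDL and at 36.8 to 39.1 CPM in miR-Ctrl BDL, and its log2 fold change was -1.59 ± 0.28 (SE, adjusted p = 0.00249). Scp2, a sterol carrier of peroxisomes, had one of -1.30 ± 0.17 (SE, adjusted p = 0.000586) and the hepatic lipase Lipc one of -1.29 ± 0.24 (SE, adjusted p = 0.00296). Of the 10 control genes, Srebf1 and Nr1h3 (LXR alpha) fell, and of the 11 genes of isoprenoid use 1 rose (Zmpste24) and 1 fell (Rabggta).

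With the inhibitor, 39 of these genes were tested against no BDL, and 1 rose and 4 fell, beside 13.1% higher and 8.44% lower among all genes tested. Npc2, a lysosomal cholesterol carrier, rose by 0.64 ± 0.15 (SE, adjusted p = 0.0162) on the log2 scale. Cyp7b1 fell by 2.65 ± 0.53 (SE, adjusted p = 0.00874), Cyp27a1, the mitochondrial sterol hydroxylase, by 1.19 ± 0.23 (SE, adjusted p = 0.00727), Scp2 by 1.05 ± 0.23 (SE, adjusted p = 0.0117) and Hsd3b7 by 0.79 ± 0.25 (SE, adjusted p = 0.0467). Cyp8b1 was highest in mouse 1, as most synthesis genes were, but lowest in mouse 2, at 159, 1.52, 43.7 and 8.21 CPM in mice 1 to 4, with an adjusted p of 0.0998. Between both BDL groups none of the 40 passed, with 4 at an unadjusted p under 0.05. Among these, Cyp8b1 had a log2 fold change of 4.91 ± 1.08 (SE, edgeR adjusted p = 0.757) and Ch25h, with few reads, one of -1.98 ± 0.60 (SE, adjusted p = 0.757).

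Markers of other cells moved with ligation and with the mouse, and their part in the results above was not tested. Of 10 macrophage markers, 8 rose in miR-Ctrl BDL and 4 rose in anti-miR-873-5p BDL, each against no BDL. Their summed level was 144, 232, 386, 188 and 818 CPM in no BDL mice 1 to 5, 965, 2107, 899 and 1476 CPM in miR-Ctrl mice 1 to 4 and 583, 630, 1058 and 1773 CPM in anti-miR-873-5p mice 1 to 4, with Cd5l the most abundant and none at 0. Within each ligated group the mice stood in the same order for this sum as for Soat1, and for Abcg1 with the exception of anti-miR-873-5p mice 1 and 2. Of the single macrophage markers, Cd68 alone kept the order of Soat1 in both ligated groups. Cd5l was at 125 CPM in anti-miR-873-5p mouse 1 and 88.8 CPM in mouse 2, and Marco was lowest in miR-Ctrl mouse 1. The endothelial sum also had this order in miR-Ctrl BDL, at 80.7, 144, 30.9 and 118 CPM, but not in anti-miR-873-5p BDL. Of 7 cholangiocyte markers, 6 rose in each ligated group, and their sum, mostly Spp1, was 70.4 to 158 CPM without BDL, 1217, 1756, 508 and 1140 CPM in miR-Ctrl BDL and 1253, 252, 1362 and 1704 CPM in the anti-miR-873-5p mice. Cftr was at 0 in no BDL mouse 2. These markers did not share 1 order: Krt19, Krt7, Epcam and Sox9 were higher in anti-miR-873-5p mouse 3 than in mouse 4, and Krt7 and Sox9 were highest of their group in miR-Ctrl mouse 3, where Spp1 was lowest.

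The sum of 5 hepatocyte markers, mostly Alb, was 99210 to 115000 CPM without BDL, 66740, 49300, 55080 and 78530 CPM in miR-Ctrl BDL and 60640, 90420, 59060 and 44390 CPM in the anti-miR-873-5p mice. Of the 6 tested, 3 fell in miR-Ctrl BDL and 1 in anti-miR-873-5p BDL. Anti-miR-873-5p mouse 4 was the lowest of all mice in this sum, at 44390 CPM against 60640 CPM in mouse 1, where Hmgcs1 was at 46.7 against 1214 CPM. Of the 5 markers, Alb, Ttr and Apoa1 were lower in mouse 4 than in mouse 1, at 30560 against 45810, 1336 against 3067 and 3852 against 5990 CPM. Hnf4a was at 424 against 449 CPM, and Ahsg was higher in mouse 4, at 8213 against 5322 CPM. Of 4 neutrophil markers tested 3 rose in each ligated group, with a sum of 8.58 to 22.1 CPM without BDL, 239 CPM in miR-Ctrl mouse 3 and 20.03 to 80.7 CPM in the other ligated mice. S100a9 was the most abundant over all mice and Cxcr2 without BDL. S100a9 and Retnlg were at 0 in some no BDL mice. Stellate cell and fibroblast markers rose for 4 and 5 of 7, from sums of 138 to 214 CPM to 235 to 955 CPM. No endothelial marker passed in miR-Ctrl BDL, and Kdr fell in anti-miR-873-5p BDL, with sums of 30.9 to 148 CPM over all mice. All of the proliferation markers tested rose, 5 and 4, and T and NK cell markers summed to at most 6.36 CPM, with 2 of 6 at 0 in some mice.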

How the data were processed

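RNA of 13 livers was prepared with TruSeq RNA v2, which does not mark strand, and sequenced as single reads. The submitters' processing notes name CASAVA 1.8.2, FastQC, Trim Galore, TopHat, the mm10 build and DESeq2, while the counting program and annotation are not given in the sources used here. The authors deposited raw counts per Entrez gene in 3 tables, 1 per pair of groups, and the table of both BDL groups lacks 1 mouse of each (miR-Ctrl 3, anti-miR-873-5p 2). That table is labelled as without outliers, and the paper reports removing any outliers on the basis of clustering and principal components. Both mice remain in the tables against no BDL. Columns of values not used numbered 0. Each table was tested with edgeR 4.0.16 in R 4.3.3 (low-count filter, TMM scaling, quasi-likelihood test, Benjamini-Hochberg adjustment over all genes tested, threshold 0.05), without a replicate block. DESeq2 1.42.0 served as an alternative, beside other scalings, filters, fits and each mouse left out. Of 200 genes simulated with a log2 change of 2, edgeR recovered 95.5% among 13072 genes for miR-Ctrl BDL against no BDL, 90% among 13130 for the inhibitor against no BDL and 94.5% among 13746 between the BDL groups, where 6.83%, 4.76% and 10.85% of its calls fell on unchanged genes (DESeq2: 22.22%, 19.33% and 17.72%). The changed genes were drawn at random, so these rates are not those of the synthesis genes. The simulation also held no shift in scaling between groups. In the data the TMM scaling factors were 0.62 to 0.86 without BDL and 1.08 to 1.45 with BDL. Levels are CPM on 1 TMM scale for all 13 mice, and the SD on the log2 scale used a pseudocount of 0.5. A number shared between groups marks different animals: of 12 same-numbered pairs, 2 had a correlation of deviations over 0.1. Values per mouse were given for members past the threshold against no BDL, for the 3 smallest p-values between BDL groups, and for up to 6 other pathway genes a comparison; further genes were chosen after their values were seen. The members and lists were chosen with earlier results of these data known. Coordinates and promoters are from RefSeq on GRCm38.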

Additional observations from a re-analysis of the deposited data

Results flagged for a closer look

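Of 87 groups of 4 or 5 mice checked for a single distant mouse (29 members in 3 groups), 5 held one, and chance gives about 1 in 20. Sc5d was at 752 CPM in anti-miR-873-5p mouse 1, above 91.0 to 204 CPM in the other 3. Insig2 was at 681 CPM in anti-miR-873-5p mouse 2, above 59.1 to 165 CPM in the other 3. Stard4 was at 21.3 CPM in no BDL mouse 5, below 39.2 to 44.0 CPM in the other 4. In miR-Ctrl mouse 3, Soat2 was at 147 CPM, above 41.5 to 44.9 CPM, and Abca1 was at 347 CPM, above 115 to 135 CPM. Of these 5 values, 3 belong to the 2 mice left out of the table of both BDL groups.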

How the results depend on the processing

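By library size alone, 9635 genes and 15 members passed in miR-Ctrl BDL and 10194 genes and 9 members in anti-miR-873-5p BDL, each against no BDL, and Hsd17b7 turned to 0.28 in the former and Scap to 0.043 in the latter (log2). Without the 20 most counted genes in the library size, 4723 genes passed in anti-miR-873-5p BDL, and with only the BDL mice of the table of both BDL groups 4317 did, while Soat2 turned to -0.23 in miR-Ctrl BDL. DESeq2 called 29 genes between the BDL groups, where edgeR called 0. Leaving out 1 mouse at a time gave 1261 to 4317 genes and 1 to 7 members for the inhibitor against no BDL, and 0 to 1 genes between the BDL groups. Log2 fold changes then ran from -0.23 to 0.62 for Soat2 in miR-Ctrl BDL, and between the BDL groups from -0.55 to 0.71 for Idi1 and from -0.48 to 0.025 for Soat1. The median range of the synthesis genes, in alternatives chosen after seeing the data, ran from 1.61 to 2.85 in miR-Ctrl BDL and between 2.38 and 8.27 with the inhibitor when 1 mouse was left out, and was 3.17 and 6.80 by library size alone. With a replicate block, for numbers that do not pair the mice, 4063, 2195 and 0 genes and 8, 5 and 0 members passed in the 3 comparisons. In miR-Ctrl BDL against no BDL the block lost Srebf2 (adjusted p = 0.0665) and gained Sc5d (0.0499), it changed no other member's call, and Idi1 was at -0.84 between the BDL groups. Depth was least for Soat1, with 30 reads in 1 no BDL mouse.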

Other observations

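Cyp39a1, an oxysterol hydroxylase of the list of side routes, was chosen after its values were seen. It was at 78.3 CPM in miR-Ctrl mouse 3 and 88.7 CPM in anti-miR-873-5p mouse 2, the mice left out of the table of both BDL groups. In the other 6 ligated mice it was at 16.2 to 33.8 CPM, and in no BDL at 14.6 to 18.6 CPM.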
